A study of Saccharomyces cerevisiae with 4 samples.

Results

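The glycogen genes of budding yeast (Saccharomyces cerevisiae) were examined as a group of 10, taken by name from the 6459 rows of the count table: GSY1, GSY2, GPH1, GLC3, GDB1, GLG1, GLG2, PGM1, PGM2 and UGP1. All 10 rows were found, and all 10 passed the filter on low counts that left 5799 genes tested. Cells were of the BY4741 background. Their ESS1 gene, for a prolyl isomerase, carried the degron allele ESS1AID 71-114-6Flag::hphB, and the plant auxin receptor came from HIS3::ADH1-OsTIR19Myc, behind the ADH1 promoter. One group of 2 libraries came from mid-log cultures in rich glucose medium (20 g/L glucose, 30 °C) given the auxin IAA (indole-3-acetic acid) at 2 mM for 3 h, and the other group of 2 from cultures given the solvent DMSO for the same time. All 4 libraries came from the degron strain, so an effect of Ess1 loss and any other effect of IAA cannot be told apart. The comparison asks how transcript levels differ after auxin treatment of this strain.

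Glycogen is a branched polymer of glucose that yeast lays down as a reserve when growth slows, and breaks down when fuel is short. Glycogenin (Glg1, Glg2) primes a new chain, phosphoglucomutase (Pgm1, Pgm2) and UDP-glucose pyrophosphorylase (Ugp1) turn glucose 6-phosphate into the donor UDP-glucose, glycogen synthase (Gsy1, Gsy2) lengthens the chain and the branching enzyme (Glc3) adds branch points. Glycogen phosphorylase (Gph1) releases glucose 1-phosphate from chain ends, and the debranching enzyme (Gdb1) removes the branches that stop it. Transcription of several of these genes is known to answer to the stress factors Msn2 and Msn4, which bind a short element with the core AGGGG, and the enzymes are further controlled by phosphorylation, which RNA does not show.

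The libraries summed to 33589128 and 33625232 estimated counts in IAA, against 26046702 and 27609311 in DMSO. Ribosomal RNA rows took 4.83% and 4.53% of the counts in IAA and 4.19% and 3.92% in DMSO, and transposon rows took 7.40% and 7.36% in IAA and 6.46% and 6.47% in DMSO. Without both kinds of row, 7 glycogen genes were again called higher and 0 lower. Levels are given as CPM, a count relative to its library total, after TMM scaling, which sets libraries on one scale by the bulk of their genes. ESS1 mRNA was at 6.70 and 7.92 CPM in IAA, against 5.15 and 5.31 CPM in DMSO; the degron acts on the protein, so this does not check depletion. As a check of the strain, URA3, LEU2 and MET17, which BY4741 lacks, had 0 counts in all 4 libraries, and a count of 0 allows up to 3 counts, or 0.0921 to 0.111 CPM. Of the MATa genes, STE2, STE6 and BAR1 lay between 103 and 400.1 CPM. MFA1 and MFA2 lay at or below 0.806 CPM; their coding lengths of 111 and 117 bases are under the 217 to 231 bases that the authors' FPKM values take off a gene's length. Of the MATalpha genes, STE3 and the pheromone genes MF(ALPHA)1 and MF(ALPHA)2 stayed at or below 6.12 CPM, and SAG1 was at 39 to 46.3 CPM. In bulk RNA, a change in the number of cells that express a gene and a change in RNA per cell cannot be told apart.

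Of the 10 glycogen genes, 7 were higher in IAA, 0 were lower and 3 did not pass the test (edgeR's quasi-likelihood F-test, with p adjusted after Benjamini and Hochberg over all tested genes and called under 0.05). Over all tested genes, 58.3% were called, 28.7% higher and 29.6% lower. The glycogen phosphorylase gene GPH1 showed the largest rise of the 10, followed by GSY1, PGM2, GLC3 and GDB1, and these 5 were at least 1.5-fold higher, as were 6.88% of all tested genes. GPH1 alone was more than 2-fold higher, as were 2.60% of all tested genes. GSY2 and UGP1 rose less, and GLG1, GLG2 and PGM1 were the 3 without a call. The median log2 fold change was 0.50 over the 10 genes and -0.0036 over all tested genes. In TMM-scaled CPM, both IAA libraries lay above both DMSO libraries in 7 members, as in 40.2% of all tested genes. In 0 members both lay below, as in 41.3%. In the authors' FPKM, which carry library size scaling, the groups of GSY2 and UGP1 overlapped. On that scale both IAA libraries of PGM1 lay below both DMSO libraries (118 and 117 against 127.5 and 124 FPKM). Those of GLG2 did so too (24.8 and 21.9 against 25.3 and 25.9 FPKM). Shares of all genes were not computed in FPKM.

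**Figure D1:**
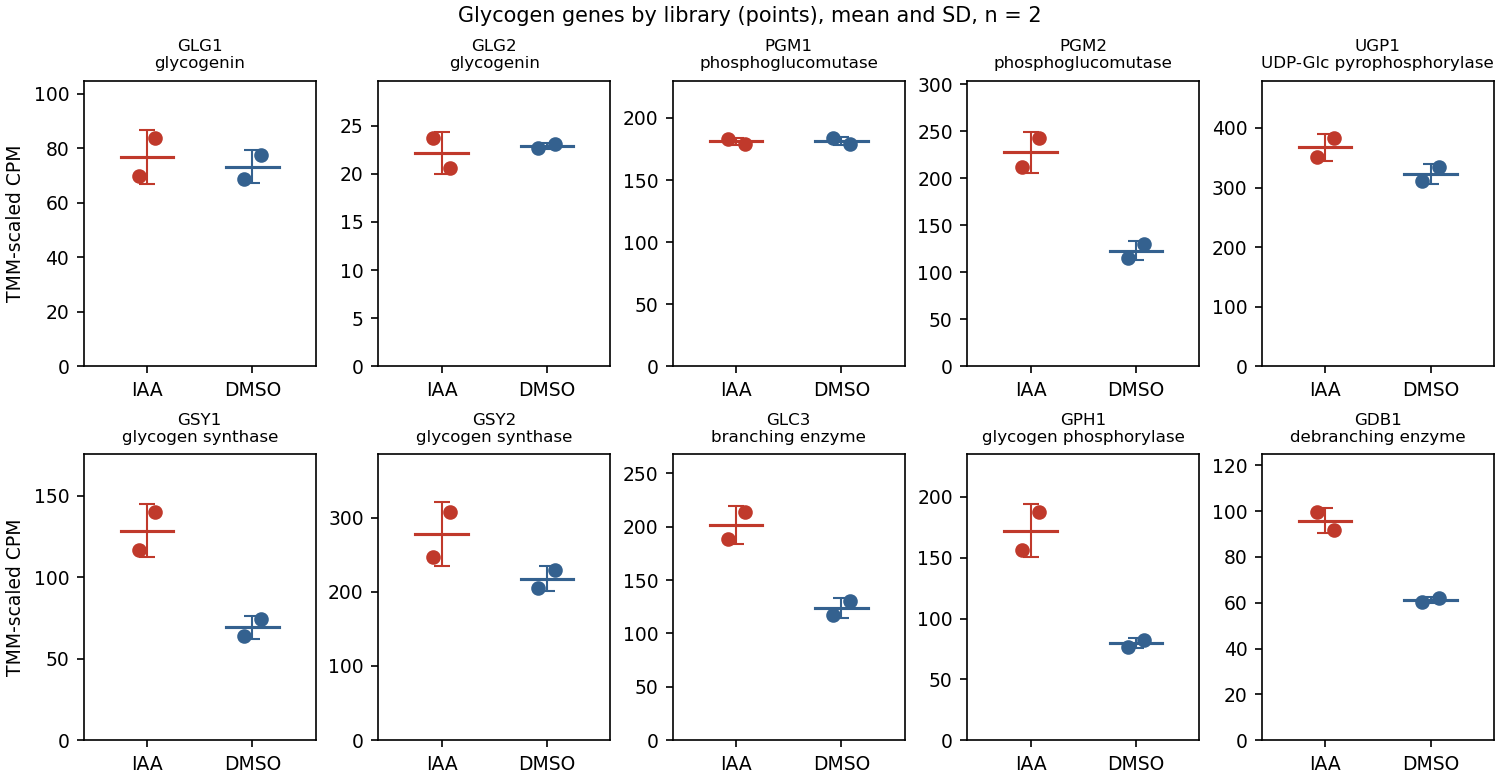
TMM-scaled CPM (y axis, from 0) of each glycogen gene in each library, with IAA in red and DMSO in blue; points are libraries, the bar is the mean and the whisker the SD (n = 2). The groups are apart in 7 genes, and overlap in GLG1, GLG2 and PGM1.

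With library size scaling in place of TMM, the median of all genes moved by -0.10 on the log2 scale, and the median of the members was 0.39. PGM2, GSY1, GLC3, GPH1 and GDB1 kept their call in all 13 alternatives that gave a test, which include leaving out each of the 4 libraries. GSY2 and UGP1 kept theirs in 9 of 13 each.

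**Figure D2:**
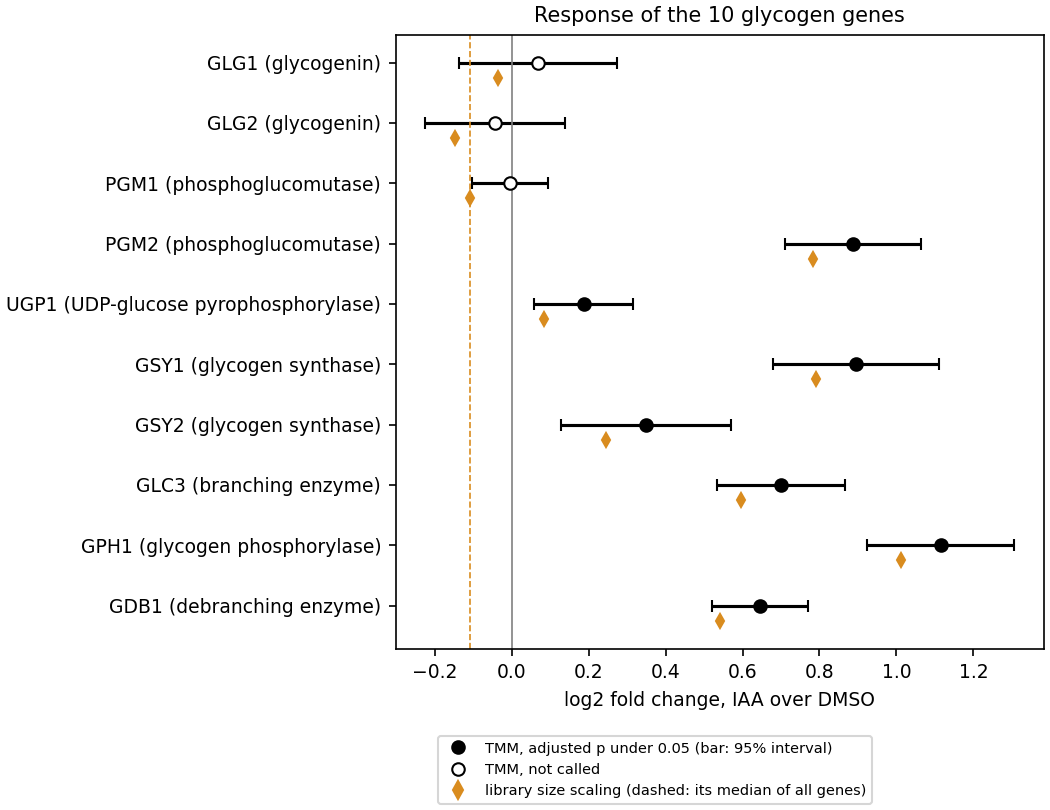
Log2 fold change of IAA over DMSO (x axis) for the 10 glycogen genes, as edgeR estimates with TMM scaling (circles, filled where called, bars for the 95% interval) and with library size scaling (diamonds); the dashed line marks the median of all genes under library size scaling. The intervals of GLG1, GLG2 and PGM1 span 0, while those of the other 7 lie above it.

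Neither gene for a priming enzyme passed the test. GLG1 (chromosome XI, 552770 to 554620 of build R64, plus strand), the longer of the glycogenin genes, was at 69.7 and 83.9 CPM in IAA, against 69 and 77.5 CPM in DMSO. The groups overlap, the log2 fold change was 0.07 (SE 0.089, 95% interval -0.14 to 0.27) and the edgeR adjusted p was 0.530. Its direction turned under library size scaling (-0.04), and without IAA replicate 1 it was called higher (0.19, edgeR adjusted p = 0.0255). GLG2 (chromosome X, 154985 to 156127, minus strand) was at 23.7 and 20.6 CPM in IAA and 22.6 and 23.1 CPM in DMSO. Its log2 fold change was -0.04 (SE 0.079, 95% interval -0.22 to 0.14; edgeR adjusted p = 0.662), and its groups overlap as well.

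Of the phosphoglucomutase genes, PGM2 was called higher and PGM1 was not called. PGM1 (chromosome XI, 203541 to 205253, plus strand) was at 183 and 179 CPM in IAA, against 184 and 179 CPM in DMSO. All 4 libraries lie within a few CPM of each other, with a log2 fold change of -0.0038 (SE 0.043, 95% interval -0.10 to 0.10, edgeR adjusted p = 0.946). With library size scaling the log2 fold change of PGM1 was -0.11 (edgeR adjusted p = 0.0602), where the median of all genes was -0.11. PGM2 (chromosome XIII, 475897 to 477606, minus strand), the form known to be induced by stress and to carry most of the activity, was at 212 and 243 CPM in IAA and at 116 and 130 CPM in DMSO. The lower IAA library stood well above the higher DMSO library, and the gene was 1.85-fold higher (log2 fold change 0.89, SE 0.077; edgeR adjusted p = 5.94e-05). Of all tested genes, 3.57% had a larger log2 fold change.

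UGP1 (chromosome XI, 369891 to 371390, plus strand), whose product feeds glycogen, trehalose and cell wall glucan alike, was at 351 and 383 CPM in IAA and at 311 and 335 CPM in DMSO. In CPM the groups were apart by a small gap, but in FPKM they overlapped (265 and 293 in IAA, 251 and 271 in DMSO). The rise was 1.14-fold (log2 fold change 0.19, SE 0.056, edgeR adjusted p = 0.0203). It was not called with library size scaling (0.08, edgeR adjusted p = 0.252), with limma on log2(FPKM + 1) (0.09, limma adjusted p = 0.284) or without DMSO replicate 1 (0.13, edgeR adjusted p = 0.181).

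Both glycogen synthase genes were higher in IAA, by unequal amounts. GSY1 (chromosome VI, 174265 to 176391, minus strand) was at 117 and 140.3 CPM in IAA, against 64 and 74.3 CPM in DMSO. The rise was 1.86-fold (log2 fold change 0.89, SE 0.095; edgeR adjusted p = 1.38e-04) and the groups were far apart. GSY2 (chromosome XII, 660716 to 662833, plus strand), the main synthase of yeast, was at 247 and 308 CPM in IAA and at 206 and 230 CPM in DMSO. The IAA libraries of GSY2 differed from each other by more than the lower of them differed from the DMSO libraries. Its rise was 1.27-fold (log2 fold change 0.35, SE 0.097; edgeR adjusted p = 0.0139), and 0.19 without IAA replicate 2. It was not called with library size scaling (0.25, edgeR adjusted p = 0.0624), with DESeq2 (0.35, adjusted p = 0.0907) or on the log2(FPKM + 1) scale (0.24, limma adjusted p = 0.145).

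The branching enzyme gene GLC3 (chromosome V, 133120 to 135234, plus strand) was at 189 and 214 CPM in IAA, against 117 and 131 CPM in DMSO. It was 1.63-fold higher (log2 fold change 0.70, SE 0.073; edgeR adjusted p = 1.25e-04), with a wide gap between the groups. Its rise lay between those of GSY2 and GSY1.

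Transcripts of both enzymes of breakdown were higher. GPH1 (chromosome XVI, 861306 to 864014, plus strand) was at 157 and 188 CPM in IAA and at 76.6 and 82.5 CPM in DMSO. It was 2.17-fold higher (log2 fold change 1.11, SE 0.084, 95% interval 0.92 to 1.31; edgeR adjusted p = 3.58e-05), and 2.05% of all tested genes had a larger log2 fold change. GDB1 (chromosome XVI, 902044 to 906654, plus strand), the longest of the 10 genes, was at 99.8 and 92 CPM in IAA, against 60.4 and 62.2 CPM in DMSO. Replicates lay close together in each group, and the rise was 1.56-fold (log2 fold change 0.65, SE 0.055; edgeR adjusted p = 5.42e-05). With a fitted trend on level, GC content and coding length taken off its log2 fold change, GDB1 stood at 0.48, and GPH1 at 1.09.

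Levels per length, in the authors' FPKM, give the make-up of the pathway. UGP1 was the most abundant of the 10 transcripts in both groups, at 279 ± 19.9 FPKM in IAA and 261 ± 14.1 FPKM in DMSO (SD, n = 2 each). In IAA it was followed by PGM2 (148 ± 15.6 FPKM) and GSY2 (142 ± 23.3 FPKM), whose libraries overlapped, then by PGM1 (118 ± 0.651 FPKM) and GLC3 (103 ± 10.1 FPKM). GPH1 (67 ± 9.14 FPKM) and GSY1 (65.4 ± 8.93 FPKM) overlapped in IAA, above GLG1 (45.7 ± 6.36 FPKM), GLG2 (23.4 ± 2.06 FPKM) and GDB1 (21.1 ± 1.07 FPKM). In DMSO the order was PGM1 (126 ± 2.29 FPKM) and GSY2 (119 ± 9.47 FPKM), which overlapped, then PGM2 (85.6 ± 7.21 FPKM), GLC3 (67.8 ± 5.2 FPKM), GLG1 (46.5 ± 3.88 FPKM), GSY1 (37.6 ± 3.98 FPKM), GPH1 (33.1 ± 1.74 FPKM), GLG2 (25.6 ± 0.403 FPKM) and GDB1 (14.5 ± 0.290 FPKM). GLG1 stood above GSY1 and GPH1 in DMSO and below both in IAA.

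The paralog pairs were then set against each other within each library, where no scaling between libraries enters. PGM2 made up 53.8% and 57.6% of the summed PGM1 and PGM2 FPKM in IAA, against 38.7% and 42.2% in DMSO. PGM2 was thus the more abundant phosphoglucomutase transcript in both IAA libraries and the less abundant in both DMSO libraries. The mean log2 ratio of PGM2 to PGM1 was 0.33 ± 0.16 in IAA and -0.56 ± 0.15 in DMSO (SD, n = 2 each), a difference of 0.89. GSY2 made up 67.9% and 68.8% of the summed synthase FPKM in IAA and 76.3% and 75.7% in DMSO, and its log2 ratio to GSY1 was 1.11 ± 0.041 in IAA and 1.66 ± 0.038 in DMSO, a difference of -0.55. GLG1 made up 62.4% and 69.6% of the glycogenin FPKM in IAA and 63.3% and 65.5% in DMSO, and here the groups overlapped. The exact two-sided permutation test over libraries gave p = 0.333 for the PGM and GSY pairs, which is the smallest value that 2 libraries against 2 allow, and p = 1 for the GLG pair; adjusted over the 3 pairs, the values were 0.5, 0.5 and 1. The test therefore could not pass 0.05 in this design.

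**Figure D3:**
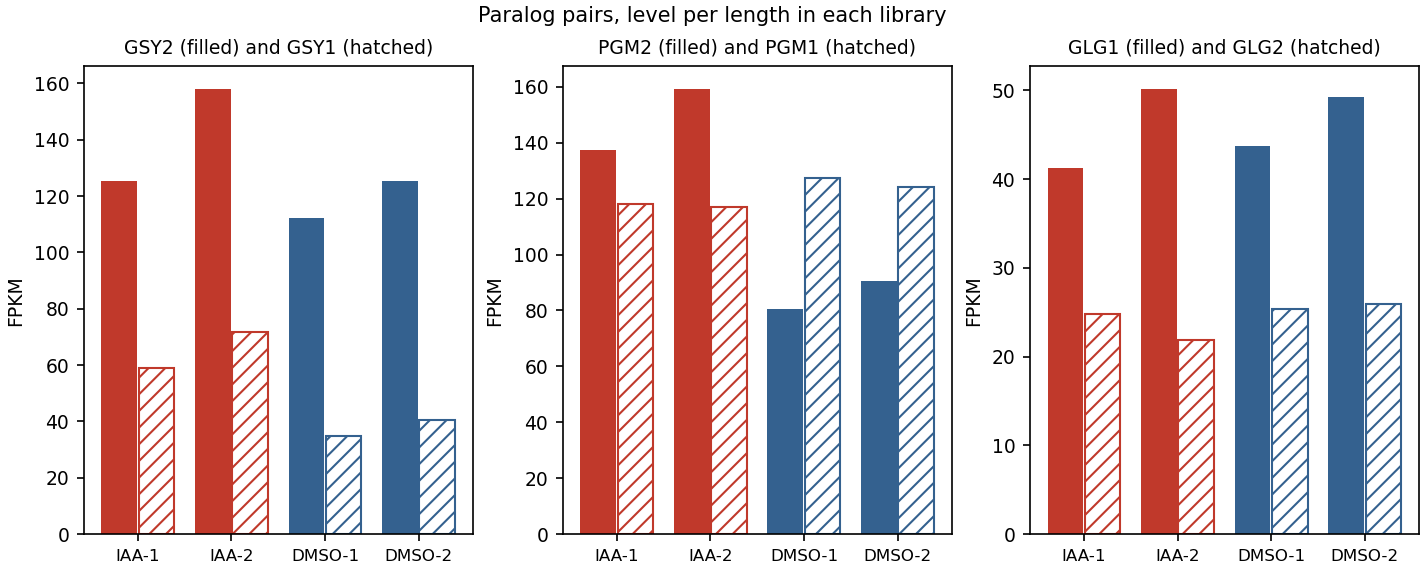
FPKM (y axis, from 0) of each paralog pair in the 4 libraries, IAA in red and DMSO in blue, with the first-named gene filled and its partner hatched. PGM2 stands above PGM1 in both IAA libraries and below it in both DMSO libraries, GSY2 stays above GSY1 throughout, and GLG1 stays above GLG2.

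Coding sequences of these pairs are alike in part, and reads could in principle be shared between them. Aligned over the whole gene, GSY2 and GSY1 were identical at 73.7% of aligned bases, PGM2 and PGM1 at 74.2%, and GLG1 and GLG2 at 71.1%, and the longest identical stretches were 20, 23 and 9 bases. The GLG genes align over 1114 of the 1851 bases of GLG1, and are identical at 42.8% of the longer gene, against 73.1% for the GSY pair and 73.5% for the PGM pair. Estimated counts were whole numbers in every library for all 10 members (611 to 12494 counts), while 428 rows of the table had a decimal in at least 1 library. No annotated protein-coding gene overlaps any of the 10, and other kinds of gene were not checked.

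Glycogen synthase was also set against glycogen phosphorylase within each library. GDB1, the other gene of breakdown, was not part of this ratio. The summed FPKM of GSY1 and GSY2 was 3.04 and 3.13 times that of GPH1 in IAA, against 4.61 and 4.83 times in DMSO. The groups did not overlap, and the mean log2 ratio was 1.63 ± 0.028 in IAA and 2.24 ± 0.048 in DMSO (SD, n = 2 each), a difference of -0.61 (exact two-sided permutation test, p = 0.333, the smallest possible). Synthase transcripts outnumbered phosphorylase transcripts per length in all 4 libraries.

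The sequence before each start codon was searched on both strands for AGGGG, the core of the stress response element, in the R64 genome. In the window from 250 bases before to 50 bases after the start codon, 5 of the 10 members held it (GLG2, PGM2, GSY2, GLC3 and GDB1), against 21.6% of 6007 coding genes. A window of 500 bases before the start codon was chosen after the first was seen. There 9 of the 10 held the word, against 34.1% of 6006 genes. At least 2 copies, a cut also not set beforehand, were held by 8, against 8.18%. Both counts include copies inside other genes, such as all 4 of UGP1. Outside other genes, 8 of the 10 held at least 1 copy, and the share of all genes was not computed. The longer words TAAGGGAT and TTAGGGAT, forms of the post-diauxic shift element, were in 0 of the 10 members in either window and in 1.58% and 2.60% of all genes. Matches before PGM2, PGM1, GSY1 and GSY2 that lie outside any other gene, and 1 of those before GPH1, are shown, since these genes span the range of responses; each is written in the direction of the gene, with the word (AGGGG, or CCCCT where it is on the other strand) in capitals and the position of its first base counted back from the start codon.
PGM2 -406 (chrXIII:477998-478022, minus strand): cacgctgctgCCCCTgagcttgcga
PGM2 -359 (chrXIII:477951-477975, minus strand): tgttctttctAGGGGggagaggccc
PGM2 -305 (chrXIII:477897-477921, minus strand): gctcacgaaaAGGGGtggtgtcgcg
PGM2 -259 (chrXIII:477851-477875, minus strand): cttacgtgaaAGGGGacgttatact
PGM2 -216 (chrXIII:477808-477832, minus strand): aggaacaaacAGGGGttgaaaagtg
PGM1 -313 (chrXI:203218-203242, plus strand): tctctgtcttCCCCTgataaatgtc
GSY1 -467 (chrVI:176844-176868, minus strand): ggaatctttcAGGGGcacaatttcc
GSY1 -332 (chrVI:176709-176733, minus strand): acaagtaataCCCCTtggaggattt
GSY2 -377 (chrXII:660329-660353, plus strand): cactggactgCCCCTggattagcga
GSY2 -196 (chrXII:660510-660534, plus strand): acgcaattcaCCCCTttctttctta
GPH1 -357 (chrXVI:860939-860963, plus strand): gaaataagtaAGGGGtggataattt

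PGM2 held 5 copies within 500 bases, the most of the 10, all between genes. PGM1 held 3, of which 2 lie in a tRNA gene and 1 between genes. GSY1, GSY2 and GPH1 held 2 each, GLC3 held 3 and GDB1 held 1, all between genes. All 4 copies before UGP1 lie inside its neighbour AIM26, and 1 of the 2 before GLG2 lies inside YJL136W-A. GLG1 held 0. The word was thus present before genes with a called rise and before GLG2 and PGM1, which had none. A match of these letters is a description of the sequence, and binding was not measured here.

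**Figure D4:**
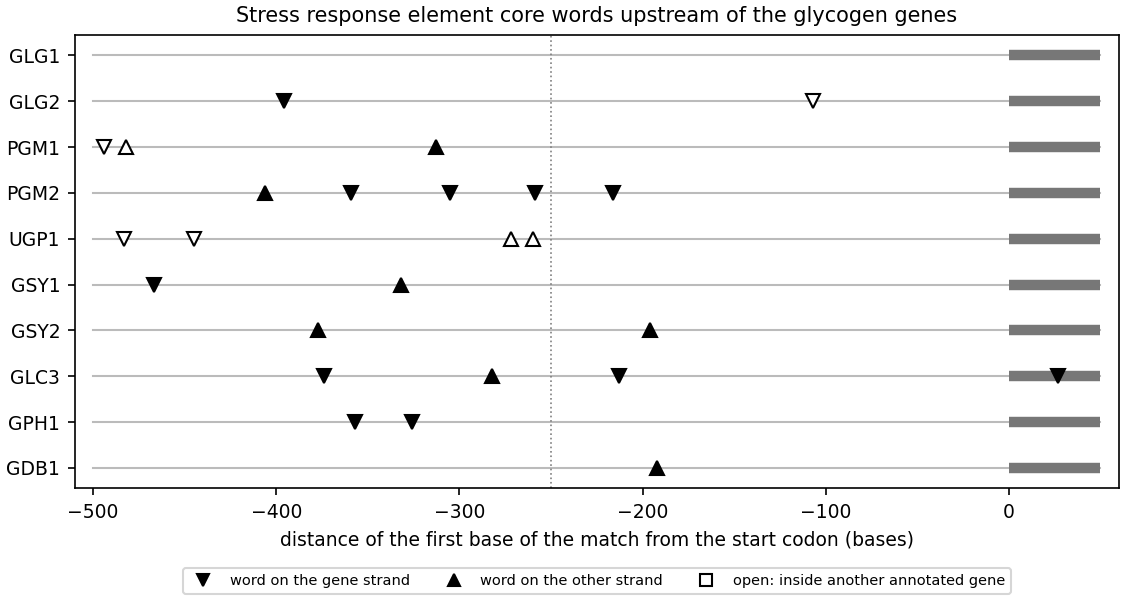
Position of each AGGGG match relative to the start codon (x axis, bases; grey block, the first 50 coding bases) for the 10 glycogen genes, pointing down where the word is on the gene strand and up where it is on the other strand, open where it lies inside another annotated gene. PGM2 carries 5 filled marks, GLG1 none, and the 4 marks of UGP1 are all open; the dotted line is 250 bases before the start.

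Of 20 coding genes next to the members on the chromosome, 18 were tested, and 5 were higher, 4 lower and 9 not called, beside 28.7% higher and 29.6% lower over all tested genes. SGV1, 434 bases beyond GPH1 on the other strand, was 1.37-fold lower in IAA, DPM1, 485 bases before GDB1, was 1.18-fold lower, and AIP5, 650 bases before GSY1, was 1.4-fold lower (edgeR adjusted p = 3.78e-04, 0.00178 and 9.08e-05). Beside PGM2, YPK2 was 1.3-fold higher (edgeR adjusted p = 0.00148), and beside GLG1, which had no call, RPS21A, a ribosomal protein gene, was 2.02-fold higher (edgeR adjusted p = 4.46e-05). HSP60 and YLR257W on either side of GSY2 were not called.

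Genes that surround the pathway were counted in 6 lists, beside the background of 28.7% higher and 29.6% lower. Together 27 of their genes were higher and 6 lower, a split that moves with the scaling, as it does over all genes. With library size scaling it was 17 and 12, where 19.5% of all tested genes were higher and 43.1% lower. With limma on log2(FPKM + 1) it was 15 and 11, where 19.4% of all tested genes were higher and 37.7% lower. Of the 6 genes for the phosphatase Glc7, which activates glycogen synthase, and its partners, 3 were higher, 1 was lower and 2 were not called, with a median log2 fold change of 0.13. PIG1, which like GAC1 directs Glc7 to glycogen synthase, was 1.36-fold higher, at 22.5 ± 1.21 CPM in IAA and 16.5 ± 0.292 CPM in DMSO (SD, n = 2 each; edgeR adjusted p = 9.53e-04). GAC1 was 1.26-fold higher (adjusted p = 0.00797) and GLC7 itself 1.1-fold higher (adjusted p = 0.0224). GLC8, a regulator of Glc7 activity, was 1.32-fold lower, at 155 ± 1.15 CPM in IAA and 204 ± 3.35 CPM in DMSO (SD, n = 2 each; edgeR adjusted p = 1.48e-04).

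A list of 9 genes covered kinases that act on glycogen enzymes, with their cyclins and subunits. Of these 9 genes, 1 was higher, 2 were lower and 6 were not called, with a median log2 fold change of -0.02. The counts were 0 higher and 4 lower with library size scaling and with limma on log2(FPKM + 1), and 0 higher and 2 lower with DESeq2 and with no filter on low counts. PHO85, the kinase that phosphorylates glycogen synthase with the cyclins Pcl8 and Pcl10, was 1.14-fold lower (edgeR adjusted p = 0.0126) and the cyclin gene PCL6 1.19-fold lower (adjusted p = 0.00373). PCL10 was at 28.8 ± 1.3 CPM in IAA and 31.8 ± 0.763 CPM in DMSO (edgeR adjusted p = 0.0774). SNF4, a subunit of the Snf1 kinase, was 1.09-fold higher (adjusted p = 0.0448). The counts of this list also changed whichever library was left out.

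The list of other genes of glycogen and sugar phosphates held 3 genes, all of them higher, with a median of 0.47. SGA1, the glucoamylase that degrades glycogen in sporulation, was 1.62-fold higher at a low level, 6.42 ± 0.0032 CPM in IAA and 3.97 ± 0.271 CPM in DMSO (SD, n = 2 each; edgeR adjusted p = 0.00179). IGD1, an inhibitor of the debranching enzyme, was 1.38-fold higher (adjusted p = 0.001), and PRM15, also known as PGM3, 1.14-fold higher (adjusted p = 0.0114).

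In the protein kinase A pathway and its stress regulators, 6 of 14 genes were higher, 3 lower and 5 not called, with a median of 0.12. MSN4 was 1.47-fold higher, at 169 ± 25.1 CPM in IAA and 115 ± 5.93 CPM in DMSO (SD, n = 2 each; edgeR adjusted p = 0.00105). TPK2, a catalytic subunit of protein kinase A, was 1.28-fold higher (adjusted p = 0.00179), BCY1, its regulatory subunit, 1.16-fold higher (adjusted p = 0.00327), and the GTPase gene RAS2 1.17-fold lower (adjusted p = 0.00631). Chosen after their values were seen, MSN2, the partner of MSN4, was 1.19-fold lower, at 135 ± 10.4 CPM in IAA and 160.3 ± 5.26 CPM in DMSO (SD, n = 2 each; edgeR adjusted p = 0.00707), and TPK3, another catalytic subunit, was 1.13-fold lower (adjusted p = 0.0194). The other higher genes, named for balance, were YAK1 (1.19-fold, adjusted p = 0.0138, with decimals in its counts), PDE1 (1.16-fold, adjusted p = 0.00847) and RIM15 (1.11-fold, adjusted p = 0.0327). With library size scaling this list had 2 higher and 6 lower of 14, beside 19.5% and 43.1% of all tested genes.

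A list of 10 genes took in other users of UDP-glucose, with their partners in trehalose synthesis. Of these 10 genes, 8 were higher, 0 lower and 2 not called, with a median of 0.34. With library size scaling, 7 were higher and 1 lower. The trehalose genes TPS2 and TSL1 were 1.34-fold and 1.38-fold higher (edgeR adjusted p = 9.00e-04 and 5.29e-04). GSC2, a glucan synthase of the cell wall, was 1.27-fold higher (adjusted p = 9.35e-04). GAL10, at 11.6 ± 0.111 CPM in IAA and 7.33 ± 0.845 CPM in DMSO, was 1.59-fold higher (adjusted p = 8.98e-04), but its estimated counts had decimals, a sign of shared reads. Of 6 genes for enzymes at glucose 6-phosphate, 6 were higher, with a median of 0.49, and 4 were higher with library size scaling. HXK1 was the largest of these at 2.31-fold (adjusted p = 1.24e-05), ahead of the glucokinase gene GLK1 (1.57-fold, with decimals in its counts), EMI2 (1.42-fold) and ZWF1 (1.4-fold), the first enzyme of the pentose phosphate pathway.

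**Figure D5:**
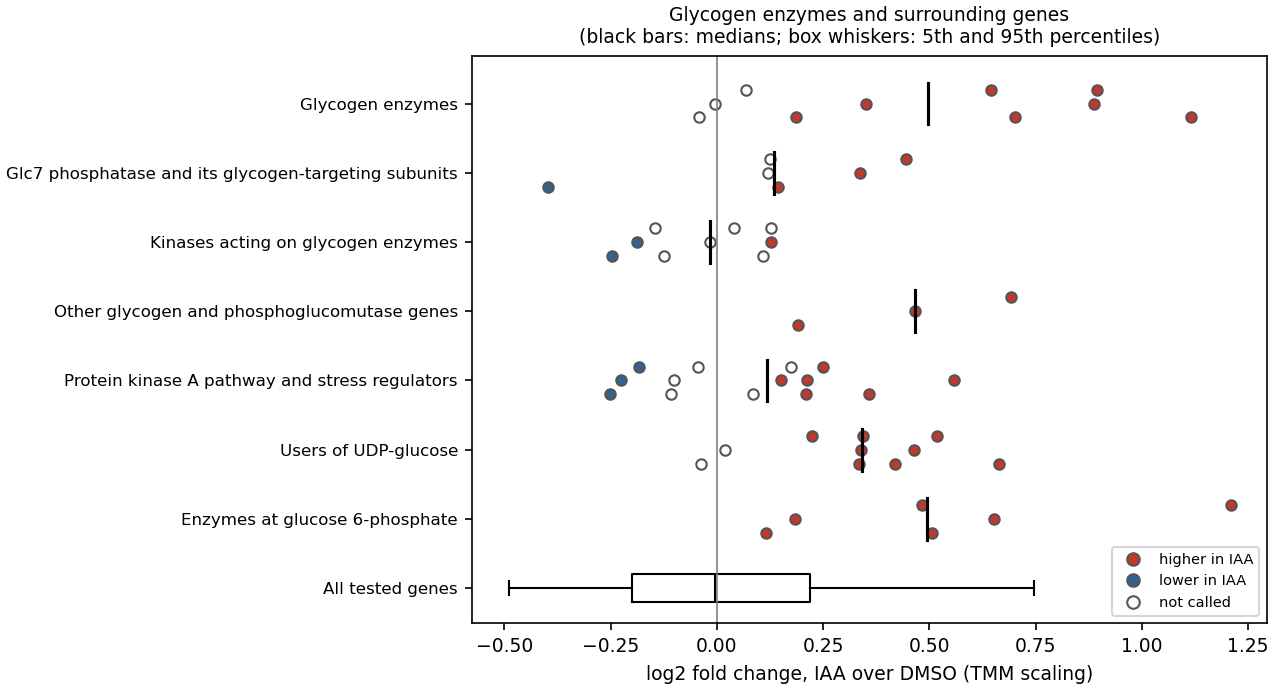
Log2 fold change of IAA over DMSO (x axis, TMM scaling) for the glycogen enzymes, for 6 lists of surrounding genes and, as a box, for all tested genes; red points are called higher, blue lower and white not called, and black bars are medians. The medians are 0.50 for the glycogen enzymes and 0.49 for the enzymes at glucose 6-phosphate. They are 0.34 for other users of UDP-glucose with their partners and -0.02 for the kinases with their cyclins and subunits.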

How the data were processed

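RNA was measured in 2 IAA and 2 DMSO libraries made with a directional kit, grouped by the treatment in the labels. The authors deposited RSEM estimated counts per gene and, in a second table, FPKM values. Per the submitters' processing notes, build R64 was used with RSEM 1.3.3, STAR 2.7.10a, DESeq2, SAMtools 1.10, FastQC 0.11.9 and Trimmomatic, in no stated role or order. Sources used here do not give the strand setting of the counting. Over long genes, the deposited FPKM equalled the count divided by the library total and by the coding length less 217 to 231 bases, so they carry library size scaling. The series text calls the libraries biological replicates, and p-values measure only the spread between them.

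Names, positions and sequences came from the RefSeq annotation and genome of R64. Counts were rounded and tested in R 4.3.3 with edgeR 4.0.16 (default filterByExpr, TMM factors 0.960 and 0.969 in IAA and 1.04 and 1.04 in DMSO, glmQLFit, glmQLFTest, no covariate), after a check on simulated counts. P-values were adjusted over all 5799 tested genes at 0.05. The SE is the log2 fold change divided by the square root of F. Alternatives were other scalings and filters, DESeq2 1.42.0, limma 3.58.1 on log2(FPKM + 1) and log2(FPKM + 0.1) at a mean FPKM of at least 1, each library left out, the replicate number as a block, and a loess trend. Members and lists were chosen with earlier results of these data known. Named genes were all members, up to 4 genes per list with the lowest adjusted p, ESS1, strain markers and chromosome neighbours. The neighbours named were picked after their values were seen. So were MSN2, TPK3, YAK1, PDE1 and RIM15, named outside the rule for lists. One sequence before GPH1 is not reported here.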

Additional observations from a re-analysis of the deposited data

How the results depend on the processing

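Alternatives were compared for counts of all genes, of glycogen genes, of the pooled lists and of members with AGGGG, and for the ratios. Of 108 values, 100 kept to the main result: a count stayed within 1.5 times, or a ratio kept its direction. The counts over all genes came near that limit with library size scaling, at 1131 higher against 1666 and 2501 lower against 1714. Each list alone and each member's log2 fold change are outside these 108. There 252 values were the same, 25 moved, 10 changed sign, 8 lost a call and 1 gained a call. The 6 pathway lists together held 27 higher and 6 lower genes, against 17 and 12 with library size scaling, and 15 and 11 with limma on log2(FPKM + 1), as on log2(FPKM + 0.1); the share of higher genes among all calls was 49.3% with TMM and 31.1% with library size scaling. The number of members with AGGGG was 5 in the 250 bases before the start and 9 in 500. The difference in the GLG1 to GLG2 ratio (0.10) ranged from -0.13 to 0.34 with a library left out, being -0.13 without IAA replicate 2. The direction of members without a call turned in places: GLG1 was -0.035 with library size scaling, -0.029 and -0.030 with limma on log2(FPKM + 1) and log2(FPKM + 0.1), and -0.064 to 0.19 with a library left out. GLG2 ranged from -0.15 to 0.062 and PGM1 from -0.024 to 0.018 with a library left out, and PGM1 was 6.0e-05 with RLE scaling and 0.016 among genes of mean CPM 10 or more. PGM1 was lowest at -0.11 with library size scaling, and was -0.097 and -0.098 with limma on log2(FPKM + 1) and log2(FPKM + 0.1), without a call. The cause was not tested. At 1.5-fold, 5 members were called in the TMM fit, the only fit given this cut. The log2 fold change of GDB1 was 0.54 with library size scaling and 0.51 with limma on log2(FPKM + 1), both under 1.5-fold. With the replicate number as a block, 7 members were higher and 0 lower, and 1832 and 1876 of all genes; no member changed its call. Differences between replicates 2 and 1 correlated at r = 0.23 between the groups, but the labels do not say that a number marks a shared culture or day. Leaving out a library leaves its group with a lone sample, which the fit takes to vary like the other group. Members had 611 counts or more per library; counting error and spread between libraries were not separated.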

Other observations

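The difference between replicates had the same direction in both groups for most of the glycogen genes. In 7 of the 10 genes, the library numbered 2 was above the library numbered 1 in IAA and also in DMSO, as it was in 27.5% of all tested genes (TMM-scaled CPM). In IAA the log2 difference between the libraries numbered 2 and 1 was 0.32 for GSY2, 0.26 for GPH1, 0.27 for GLG1 and 0.26 for GSY1; in DMSO it was 0.16 for GSY2, 0.11 for GPH1, 0.17 for GLG1 and 0.21 for GSY1. For GSY2 the difference within IAA is close in size to its log2 fold change of 0.35 between treatments, while for GPH1 it is well below its 1.11. PGM1 differed by -0.03 in IAA and -0.04 in DMSO. Whether the numbers mark a shared culture or day is not given in the labels, and the source of these differences was not tested.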
